A study of Mus musculus with 8 samples.

Results

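Transcripts of potassium, calcium and sodium channel genes were examined in islets isolated from mice, small endocrine organs of the pancreas in which beta cells make insulin. The members were chosen by name only: every gene in the deposited tables whose symbol starts with Kcn or Cacn, the sodium channel subunit genes (Scn), and the sulfonylurea receptor genes Abcc8 and Abcc9. This gave 83 of the 16333 genes. The name voltage-gated covers only some of them, since the rule also takes 10 inward rectifier and sulfonylurea receptor genes, 8 tandem-pore potassium channels, 6 calcium-activated potassium channels and 2 noncoding RNAs. The others are 21 pore subunits of the voltage-gated potassium channels (the 2 electrically silent subunits Kcnf1 and Kcng3 included), 10 potassium auxiliary subunits, 8 calcium and 5 sodium pore subunits, 10 calcium auxiliary subunits and 3 sodium beta subunits. All 83 had passed a filter on low genes made before deposit, so channel genes below it were not analysed here.

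The knockout group was 2 mice in which NFATc2, a transcription factor that calcineurin, a phosphatase driven by calcium, sends to the nucleus, was removed with tamoxifen in cells that express insulin ("INS-1" in the labels), in adulthood. The wild-type group was 2 mice that received tamoxifen and kept the gene. All samples carry the strain label Agouti/C57BL6, ages are not labelled, and the sources used here do not give the promoter that drove the recombination. Islets of each mouse were hand-picked, cultured overnight in 5.5 mM glucose, and split between 2 h without treatment and 2 h in 11 mM glucose with a mix of IL1β (5 ng/mL), TNFα (10 ng/mL) and IFNγ (50 ng/mL). The glucose of the untreated islets during those 2 h is not given in the labels. If it differed, cytokines and glucose were changed together and cannot be told apart. The design thus has 4 groups of 2 libraries, in which the 2 replicates are different mice and the same 4 mice appear in both treatments.

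As background, a beta cell turns metabolism into secretion through these channels. ATP closes the KATP channel, made of the inward rectifier Kcnj11 and the sulfonylurea receptor Abcc8, and the membrane depolarizes. Voltage-gated calcium channels, helped by sodium channels, then open and carry the calcium that triggers exocytosis and activates calcineurin, and voltage-gated, calcium-activated and tandem-pore potassium channels repolarize the cell. NFAT factors bind DNA at a core GGAAA.

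The upstream sequences of 5 channel genes are shown because 1 of the fits described further on, limma with sex as a covariate, called them between genotypes. It called Kcnk16, Kcnh1 and Kcnn3 lower and Kcnj5 higher in knockout islets in both treatments, and Kcnk5 lower with cytokines. The authors' tables and limma without that covariate called none of them in either treatment, and the genes were picked after their values had been seen. Each is the run of 250 bases before the RefSeq transcript start (GRCm38.p6), 5′ to 3′ on the strand of the gene, with any GGAAA, or TTTCC for the other strand, in capitals. Kcnk16 lies at chr14:20269270-20269519 on the minus strand, Kcnk5 at chr14:20181783-20182032 on the minus strand, Kcnh1 at chr1:192190527-192190776 on the plus strand, Kcnn3 at chr3:89519914-89520163 on the plus strand and Kcnj5 at chr9:32344345-32344594 on the minus strand.
Kcnk16: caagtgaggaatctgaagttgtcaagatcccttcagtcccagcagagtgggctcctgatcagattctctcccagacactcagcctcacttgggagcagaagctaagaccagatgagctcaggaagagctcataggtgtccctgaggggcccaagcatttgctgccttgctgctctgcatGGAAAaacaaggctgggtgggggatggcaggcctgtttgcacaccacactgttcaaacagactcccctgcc
Kcnk5: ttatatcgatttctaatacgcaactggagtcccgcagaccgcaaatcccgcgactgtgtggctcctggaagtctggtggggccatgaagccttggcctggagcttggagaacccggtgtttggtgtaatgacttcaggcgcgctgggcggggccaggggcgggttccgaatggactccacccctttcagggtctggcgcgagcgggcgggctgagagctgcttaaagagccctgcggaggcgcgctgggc
Kcnh1: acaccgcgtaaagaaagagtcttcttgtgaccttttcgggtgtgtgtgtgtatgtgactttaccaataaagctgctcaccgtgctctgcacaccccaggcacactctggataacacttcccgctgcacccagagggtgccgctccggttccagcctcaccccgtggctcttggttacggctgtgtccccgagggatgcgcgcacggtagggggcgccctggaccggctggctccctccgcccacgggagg
Kcnn3: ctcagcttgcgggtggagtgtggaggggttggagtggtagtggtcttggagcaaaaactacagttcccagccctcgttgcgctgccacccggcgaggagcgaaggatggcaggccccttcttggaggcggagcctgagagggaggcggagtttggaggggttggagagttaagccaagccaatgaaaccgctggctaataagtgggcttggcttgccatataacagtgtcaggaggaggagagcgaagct
Kcnj5: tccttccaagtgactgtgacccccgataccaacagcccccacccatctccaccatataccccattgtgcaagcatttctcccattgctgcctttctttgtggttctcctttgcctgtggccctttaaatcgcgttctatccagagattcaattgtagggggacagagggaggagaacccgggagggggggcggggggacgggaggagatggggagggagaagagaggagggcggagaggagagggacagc
The Kcnk16 window holds 1 GGAAA, on the strand of the gene, and the other 4 windows hold 0 on either strand. RefSeq gave an upstream window for 58 of the 83 channel genes, of which 23 (39.7%) hold at least 1 GGAAA on either strand. Among the first listed windows of all 27025 genes in that table the share is 55.6%. A match is a string of letters and not a shown binding site, and its absence says only that these letters are not in this window.

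The deposited tables give group means, from which whole reads per library could be worked back for 16318 genes, all 83 channel genes included. The libraries held 14619270 to 26954345 reads. Within a group, libraries could be told apart only by 4 Y-linked genes: each group held 1 library of a female and 1 of a male mouse. Sex is not in the labels, and with 1 mouse of each sex per genotype it cannot be told apart from the individual mouse. Values below are normalized counts (reads over a size factor per library), female before male. In the tables the genotypes are KO and Mut. The second name is in no label; it was read as wild type, the only genotype left, and every direction rests on that reading. Nfatc2 held 1167 and 842 in untreated knockout libraries against 1557 and 1270 in wild type, and 987 and 899 against 1646 and 1144 with cytokines. Knockout libraries were lower within each sex, and the authors' deposited FDR was 0.903 and 0.474, so whole-gene counts of islets that also hold undeleted cells are a limited check of the genotype. Markers of beta cells (Mafa, Pdx1, Nkx6-1, Slc2a2, G6pc2, Ucn3, Slc30a8) were present in every library and summed to 76046 to 90792 normalized counts. The acinar list, 10 measured markers of exocrine pancreas, ranged from 7142 to 116109 in sum. Whether this reflects exocrine tissue carried over to differing degrees was not tested.

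Compared per kb of exon, the channel genes spanned more than 3 orders of magnitude. Abcc8, the regulatory subunit of KATP, stood highest at 3259 normalized counts per kb over all libraries, above its pore Kcnj11 at 720. The 2 genes are neighbours on chromosome 7, 3758 bases apart. The tandem-pore channel Kcnk16, a background potassium channel of beta cells, came next at 1436 per kb, and then the BK beta subunit Kcnmb2 at 735. The median over channel genes was 45.7 per kb against 116 over all genes with an exon length. In normalized counts, 21 channel genes had a mean of at least 1000 and 33 a mean under 100, where 2 libraries per group leave wide errors.

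**Figure D1:**
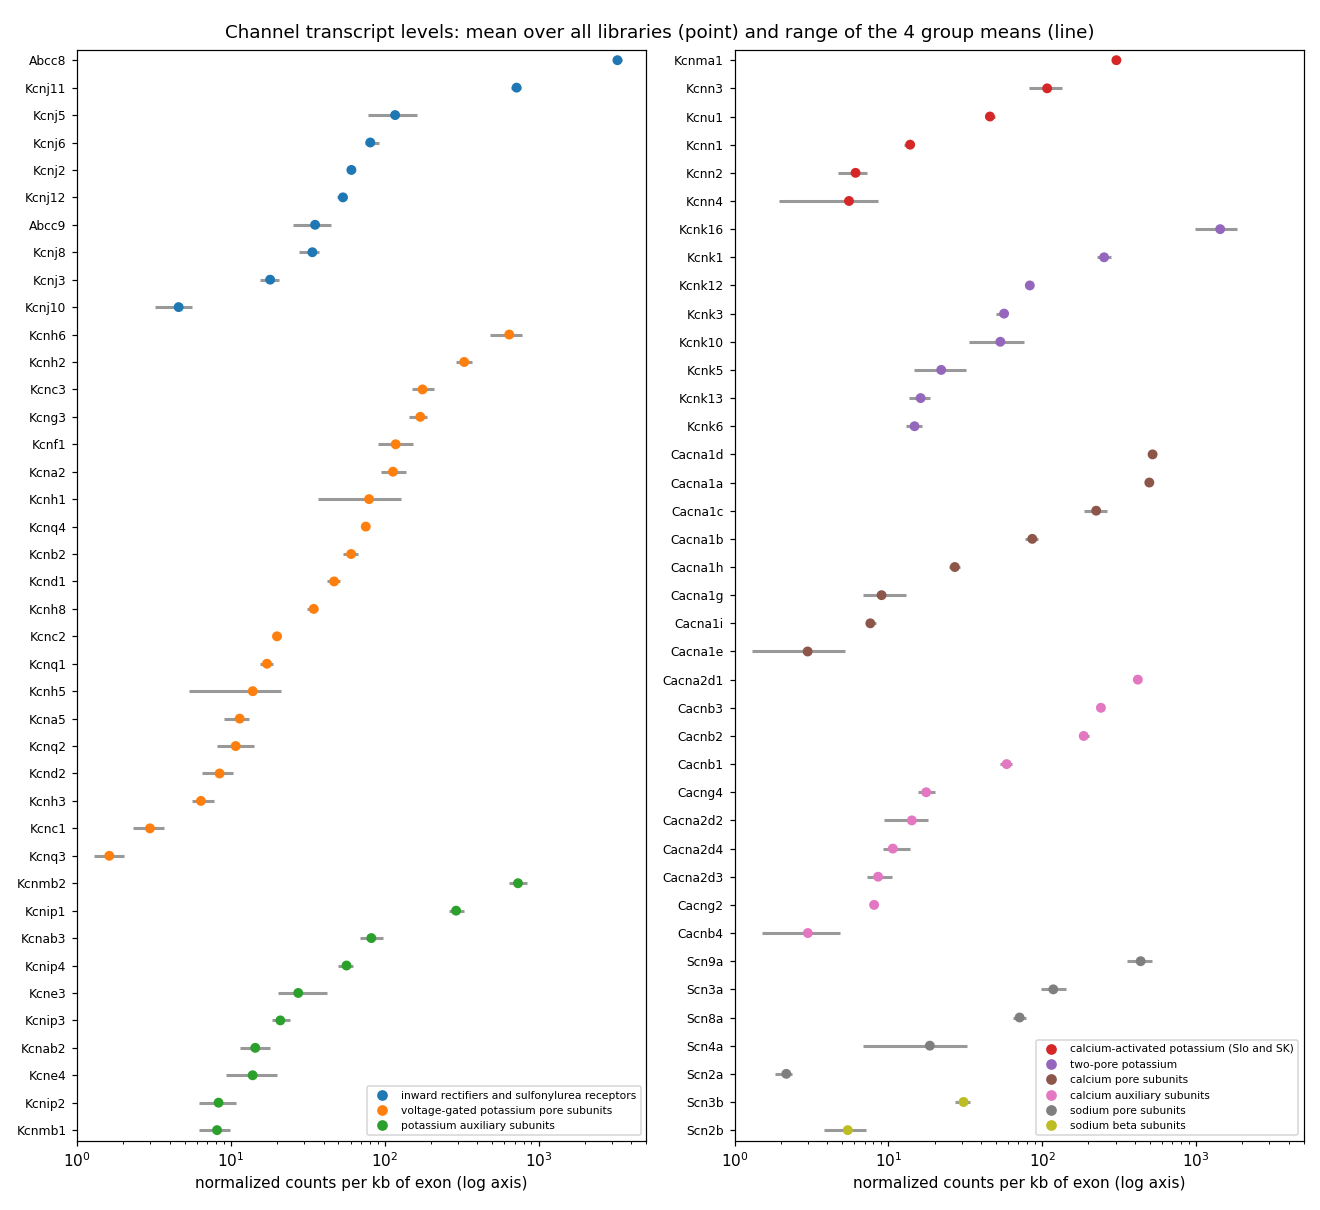
Mean over all libraries (points) of 79 protein-coding channel genes in normalized counts per kb of exon, on a log axis, grouped by family; grey lines run from the lowest to the highest of the 4 group means. Abcc8 (3259), Kcnk16 (1436), Kcnmb2 (735) and Kcnj11 (720) are at the top, and the widest lines belong to genes such as Kcnh1, Kcnh5, Scn4a and Cacna1e.

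Within each role a few members carried most of the transcript. Among voltage-gated potassium pores, which repolarize the membrane, Kcnh6 (645 per kb) and Kcnh2 (329), both of the ERG type, came first, while Kcnq3 (1.62) came last. Among calcium pores the L-type Cacna1d (522) and the P/Q-type Cacna1a (497) exceeded the L-type Cacna1c (224), and the R-type Cacna1e was lowest at 2.99 per kb. Cacna2d1 (419), an α2δ subunit that carries calcium pores to the membrane, and the β subunits Cacnb3 (241) and Cacnb2 (186) led the calcium auxiliaries. Scn9a led the sodium pores at 437 per kb, ahead of Scn3a (118) and Scn8a (71.3), and the beta subunit Scn3b was lower at 30.8. Kcnma1, the BK pore, stood at 304 per kb and the SK channel Kcnn3 at 108. The sources used here do not say whether the libraries are stranded, and 26 channel genes share exonic bases with a gene on the opposite strand, so for those, Cacna1d, Cacna1a, Kcnma1 and Scn9a among them, reads of the partner cannot be separated.

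The first comparison asked which channel genes differed between untreated knockout and wild-type islets. In the authors' deposited table, 0 of 83 channel genes passed an FDR of 0.05, where 0.41% of all genes did. At an unadjusted p below 0.05 stood 13 channel genes (15.7%, against 4.89% of all genes), 8 lower in knockout islets (9.64%, against 1.52%) and 5 higher (6.02%, against 3.37%). The directions were uneven: 56 of 83 fold changes were negative and the median log2 fold change was -0.14, against -0.004 over all genes. In limma fits on the recovered reads the untreated median was -0.13. It went to 0.01 without the library of the knockout male, -0.06 without the wild-type female, -0.27 without the knockout female and -0.23 without the wild-type male. Its size therefore depends on single libraries, and its sign on the knockout male. The second comparison, the same genotypes with cytokines, used the same 4 mice and is not an independent repeat. There too 0 channel genes passed the FDR (0.998% of all genes did), 10 had an unadjusted p below 0.05 (12%, against 5.88%). Of these, 9 were lower (10.8%, against 2.24%) and 1 was higher (1.2%, against 3.64%), and 55 of 83 fold changes were negative with a median of -0.15. By limma this median was -0.13 with all libraries, -0.0002 without the knockout male, 0.03 without the wild-type female, -0.26 without the knockout female and -0.30 without the wild-type male.

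**Figure D2:**
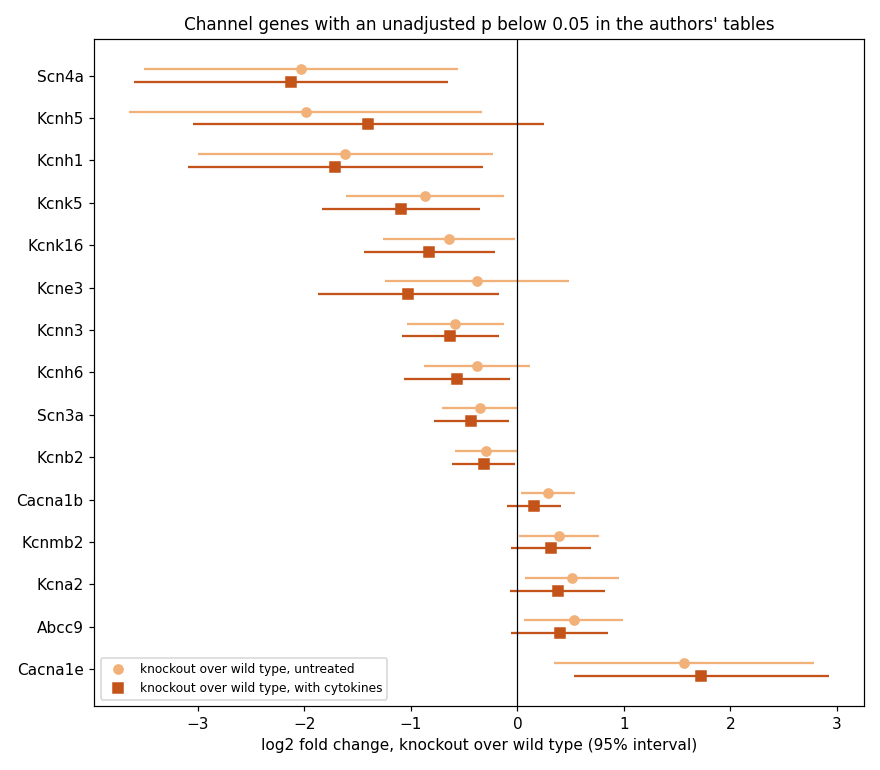
Authors' log2 fold change of knockout over wild type with its 95% interval, untreated (circles) and with cytokines (squares), for the 15 channel genes with an unadjusted p below 0.05 in either comparison. Scn4a, Kcnh5, Kcnh1, Kcnk5 and Kcnk16 lie left of 0 and Cacna1e right of 0 in both treatments, the first 3 with the widest intervals.

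Kcnk16, which sets a background potassium current in beta cells (ENSMUSG00000023387, chromosome 14, 20261376 to 20269199, GRCm38), held 5048 and 3679 normalized counts in untreated wild-type libraries and 3419 and 2165 in knockout ones. With cytokines it held 5177 and 3136 against 2898 and 1793. Knockout was below wild type in both sexes and both treatments, although the untreated knockout female exceeded the wild-type male with cytokines. In the authors' deposited tables the log2 fold change was -0.64 (SE 0.32, FDR 0.946) untreated and -0.83 (SE 0.32, FDR 0.339) with cytokines, neither past the threshold. By limma the latter went from -0.82 to -0.48 without the knockout male and -0.46 without the wild-type female.

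Kcnk5, a tandem-pore channel sensitive to pH (ENSMUSG00000023243, 20140057 to 20181809), is the neighbour of Kcnk16 on the same strand of chromosome 14, with 79566 bases between them. It held 101 and 81.4 normalized counts in untreated wild-type libraries and 54.3 and 45.8 in knockout ones, then 125 and 91.6 against 55.8 and 45.9 with cytokines. All 4 knockout libraries lay below all 4 wild-type libraries. The authors' deposited log2 fold change was -0.87 (SE 0.38, FDR 0.748) untreated and -1.09 (SE 0.38, FDR 0.196) with cytokines. The latter was the smallest FDR of any channel gene with cytokines. Another tandem-pore gene pointed the other way. Kcnk10, a channel opened by membrane stretch and lipids, held 154 and 448 against 411 and 817 untreated and 160 and 428 against 444 and 889 with cytokines, wild type before knockout.

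Kcnh1, an ether-à-go-go potassium pore (ENSMUSG00000058248, chromosome 1, 192190774 to 192510159), held 1012 and 649 normalized counts in untreated wild-type libraries and 362 and 180 in knockout ones. With cytokines the values were 1283 and 583 against 407 and 164. The highest knockout library was below the lowest wild-type library, and untreated the wild-type mean was 830.2 ± 257 and the knockout mean 271.0 ± 129 (SD, n = 2). The authors' deposited log2 fold change was -1.62 (SE 0.71, FDR 0.746) untreated and -1.71 (SE 0.71, FDR 0.46) with cytokines. Its close relative Kcnh5, far less abundant, held 129 and 43.6 against 30.3 and 13.3 untreated and 129 and 40.0 against 52.0 and 12.7 with cytokines, wild type before knockout. Kcnh5 was lower in knockout within each sex, but its groups overlapped, since the female libraries were higher in both genotypes. Its untreated difference went from -1.87 to -1.10 by limma without the wild-type female. The ERG-type Kcnh6, the most abundant voltage-gated potassium pore, held 3185 and 2390 against 2440 and 1840 untreated and 3039 and 2009 against 1937 and 1472 with cytokines, again lower within each sex with overlapping groups.

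Kcnn3, an SK channel opened by calcium through calmodulin (ENSMUSG00000000794, chromosome 3), held 1473 and 1321 normalized counts in untreated wild-type libraries and 1133 and 733 in knockout ones, and 1396 and 1244 against 960 and 746 with cytokines. Its genotypes did not overlap. The authors' deposited log2 fold change was -0.58 (SE 0.23, FDR 0.531) and -0.63 (SE 0.23, FDR 0.28). By limma the untreated value went from -0.61 to -0.30 without the knockout male and -0.93 without the knockout female. The BK pore Kcnma1 differed far less, 5757 and 5080 against 5068 and 4946 untreated (log2 -0.11, SE 0.11, in the authors' deposited table). Its accessory Kcnmb2 was higher in all 4 knockout libraries, at 2399 to 2773 against 1726 to 2354.

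Among sodium pores, Scn4a, the channel best known from skeletal muscle (ENSMUSG00000001027, chromosome 11), had the largest fold of the channel genes in either genotype comparison. It held 90.4 and 300.3 normalized counts in untreated wild-type libraries and 32.0 and 63.6 in knockout ones, and 71.7 and 386 against 38.1 and 66.2 with cytokines. No knockout library reached the lowest wild-type one, yet the wild-type male was 3 or more times the wild-type female. The authors' deposited log2 fold change was -2.03 (SE 0.75, FDR 0.414) and -2.13 (SE 0.75, FDR 0.219). Its size depends on that male: by limma it went from -1.86 to -0.99 untreated and from -1.72 to -0.51 with cytokines when the wild-type male was left out, and to -2.93 with cytokines without the wild-type female. Scn3a, a main sodium pore of islet cells, was lower by less (log2 -0.35, SE 0.18, and -0.43, SE 0.18, in the authors' deposited tables). Scn9a, the most abundant, leaned upward: 2990 and 6130 against 4974 and 7493 untreated, and 2916 and 6845 against 5330 and 7945 with cytokines.

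Among calcium pores the least abundant, Cacna1e (R-type, ENSMUSG00000004110, chromosome 1), was the one higher in knockout islets by most. It held 39.9 and 25.2 normalized counts in untreated wild-type libraries and 131 and 61.4 in knockout ones, and 46.7 and 33.3 against 197 and 68.8 with cytokines, with no overlap. The authors' deposited log2 fold change was 1.56 (SE 0.62, FDR 0.531) and 1.73 (SE 0.61, FDR 0.218). By limma these went from 1.48 to 0.94 and from 1.55 to 0.79 without the knockout female. The N-type Cacna1b was also higher in all 4 knockout libraries by less, 902 to 958 against 759 to 837. The abundant L-type Cacna1c pointed down, 6243 and 4581 against 4775 and 3320 untreated and 6559 and 4645 against 4599 and 3327 with cytokines. Its fellow L-type pore Cacna1d differed by a log2 of -0.07 (SE 0.12) and -0.10 (SE 0.12), and Cacna1a by 0.05 (SE 0.16) and -0.03 (SE 0.16), in the authors' deposited tables. The auxiliary Cacnb4, at 5.32 to 21.8 in wild-type and 23.1 to 50.9 in knockout libraries, did not overlap between genotypes, but it shares exonic bases with an antisense gene.

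The KATP channel, the entry point of glucose sensing, was close between genotypes. Abcc8 held 31445 and 24638 normalized counts in untreated wild-type libraries and 27010 and 23791 in knockout ones, a log2 fold change of -0.14 (SE 0.19) in the authors' deposited table. Kcnj11 held 2738 and 2602 against 2422 and 2416 (log2 -0.14, SE 0.12). The 95% intervals, -0.52 to 0.23 and -0.38 to 0.09, hold 0 and do not show equality. The G-protein-gated inward rectifier Kcnj5 was the exception in this family. It held 233 and 542 against 589 and 938 untreated and 187 and 541 against 494 and 857 with cytokines, wild type before knockout, so knockout was higher within each sex while the wild-type males exceeded the lowest knockout library.

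**Figure D3:**
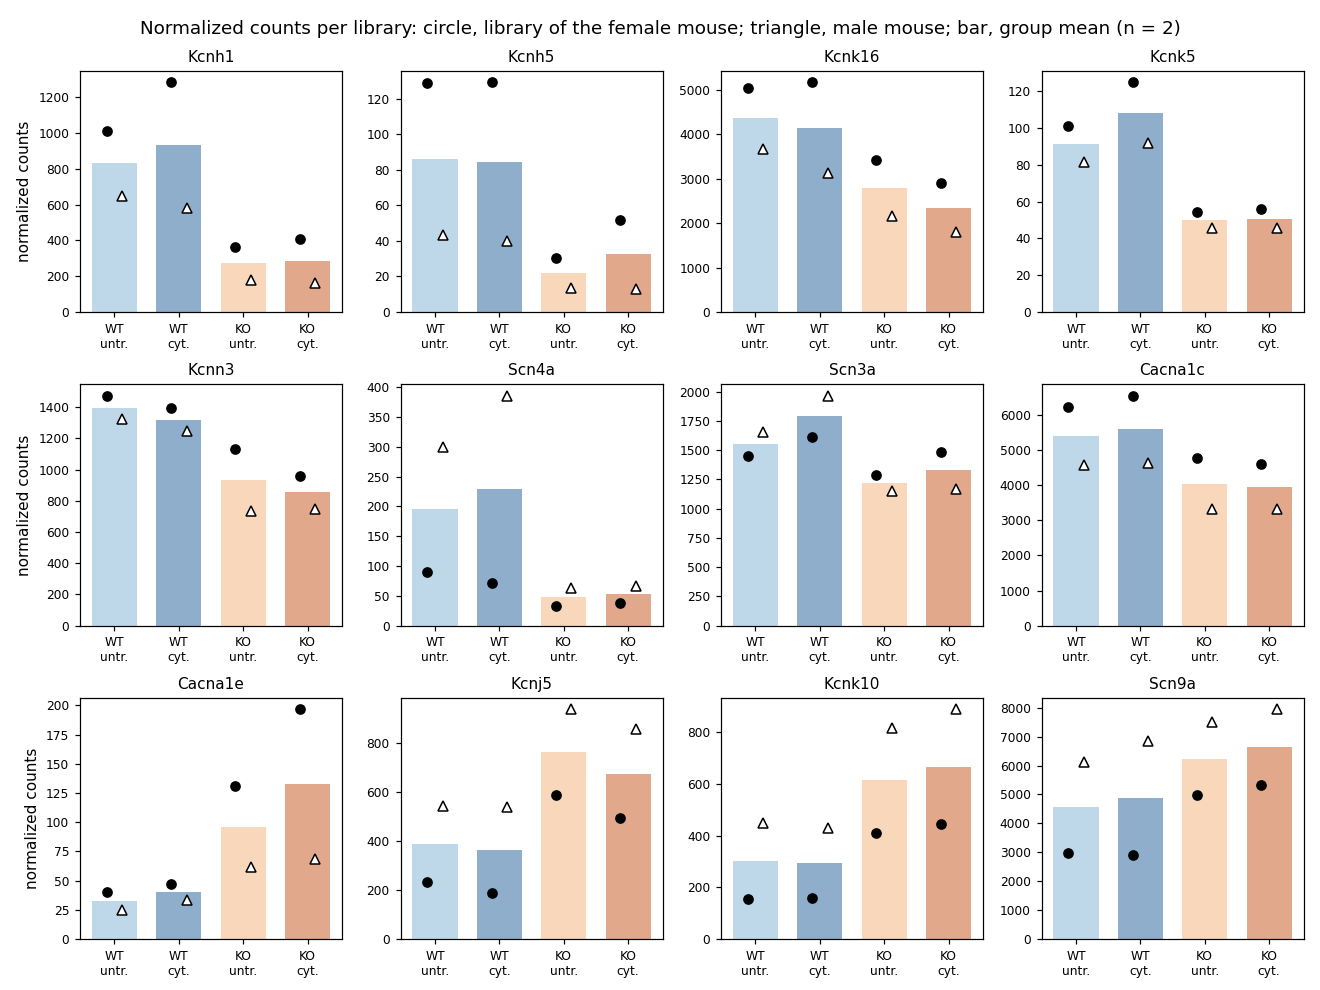
Normalized counts per library for 12 channel genes; circles are the female and open triangles the male mouse of each group, bars the group mean (n = 2). In Kcnh1, Kcnk5, Kcnn3 and Scn4a every knockout point is below every wild-type point, in Cacna1e every one is above, and in Kcnj5, Kcnk10 and Scn9a the male points are higher in both genotypes.

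Because female-minus-male differences were correlated between groups, the genotypes were also compared with sex as a covariate, by limma on the recovered reads. Without it, limma called 0 channel genes and 0 of all genes in either treatment. An unadjusted p below 0.05 was there reached by 13 and 6 of 83 channel genes and by 1132 and 846 of 16318 genes. With sex as a covariate, 13 channel genes were called untreated (15.7%, against 4.23% of all genes), 6 higher (7.23%, against 2.99%) and 7 lower (8.43%, against 1.24%). With cytokines it called 15 (18.1%, against 5.56%), 5 higher (6.02%, against 3.87%) and 10 lower (12%, against 1.7%). This fit keeps 1 residual degree of freedom per gene and borrows most of its error from other genes, so its p-values rest on that borrowed error and on a pairing by sex that no label states. Both treatments called Kcnh1, Kcnh5, Kcnh6, Kcnk16, Kcnn3, Scn4a and Cacna1c as lower and Cacna1e, Kcnj5, Kcnk10 and Scn9a as higher. Kcnmb2 and Kcna2 were called, both higher, in the untreated fit, and Kcnk5, Kcne3 and Cacna1g (lower) and Cacnb4 (higher) in the cytokine fit; whether the treatments differ for these was tested as the response difference below. Adjusted p-values from limma with the sex covariate were 0.000262 and 4.72e-10 for Kcnh1, 0.00343 and 9.05e-05 for Kcnk16, 0.00358 and 4.34e-05 for Scn4a, 0.0139 and 0.000362 for Cacna1e, and 0.0217 and 0.00564 for Kcnn3, untreated before cytokines.

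Over both treatments, with the libraries of a mouse treated as related (estimated correlation 0.635), limma called 0 of 83 channel genes and 8 of all genes (0.049%). Here 21 channel genes had an unadjusted p below 0.05 (25.3%, against 8% of all genes). Kcnh1 had the smallest adjusted p, 0.219 by limma, with a log2 difference of -1.70 (SE 0.39). Without the wild-type male mouse, limma called 4 channel genes (4.82%), all higher in knockout (Cacnb4, Kcnj5, Kcnk10 and Kcnmb2), and 533 of all genes (3.27%). Without the wild-type female mouse it called 2, both lower (Scn4a and Kcnf1), and 37 of all genes (0.227%). With every library taken as independent it called 1, Kcnk5, and 262 of all genes (1.61%). Counting libraries rather than tests, all 4 knockout libraries lay below all 4 wild-type libraries for 8 channel genes (9.64%, against 4.76% of all genes): Kcnb2, Kcnh1, Kcnip1, Kcnk1, Kcnk5, Kcnma1, Kcnn3 and Scn4a. They lay above for 5 (6.02%, against 5.38%): Cacna1b, Cacna1e, Cacnb4, Kcng3 and Kcnmb2. Knockout was below wild type in both sexes and both treatments for 31 channel genes (37.3%, against 15%) and above for 14 (16.9%, against 15.7%).

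By role, 17 of 21 voltage-gated potassium pores had a negative fold change untreated (median -0.28) and 15 of 21 with cytokines (median -0.22). Over all genes, 8333 of 16333 fold changes were negative untreated and 8299 with cytokines. Of the calcium-activated channels 5 of 6 were negative untreated and 3 of 6 with cytokines, and of the sodium pores 4 of 5 in each treatment (medians -0.35 and -0.17). Among tandem-pore channels 6 of 8 were negative in each treatment, and among potassium auxiliary subunits 7 and 8 of 10. Calcium pores were split, 4 of 8 negative untreated and 5 of 8 with cytokines. So were the inward rectifiers and sulfonylurea receptors, at 5 and 6 of 10. Calcium auxiliary subunits had 6 and 7 of 10 negative, and sodium beta subunits 1 of 3 in each treatment. As given above, the median over all channel genes depended on single libraries. The authors' deposited tables held no call in any family, and no family was tested as a set.

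Cell-type markers also differed between genotypes. Beta-cell sums overlapped (83343 to 90792 in knockout, 76046 to 85741 in wild type). Of 7 beta-cell markers, 2 (Pdx1 and G6pc2) were higher in all 4 knockout libraries and 0 lower. Alpha-cell sums without Gcg and delta-cell sums overlapped too, with 0 of 6 and 0 of 4 markers apart. Delta sums of knockout against wild type were 28038 and 26771 against 41465 and 39265 in females. In males they were 18697 and 20949 against 20680 and 18349, untreated before cytokines. Of 10 endothelial markers, 9 were lower in all 4 knockout libraries, and their sum was 5395 to 7043 in knockout against 8929 to 11690 in wild type. Knockout libraries were higher in the sums of 7 macrophage markers (2599 to 3237 against 1691 to 2185), 5 lymphocyte markers (359 to 1348 against 166 to 236) and 7 proliferation genes (1147 to 1697 against 433 to 524). In the lymphocyte sum, the general leukocyte gene Ptprc alone held 288 to 1089 in knockout and 140 to 198 in wild type. The listed Cd3e, Cd3d and Trac were not measured. Endothelial and macrophage markers had no value of 0 in any library, and 1 lymphocyte marker was at 0 in at least 1 library. The acinar sum was higher in knockout within each sex and treatment, at 68595 against 60474 and 116109 against 28350 in females and 31554 against 9781 and 22458 against 7142 in males, untreated before cytokines. Stromal and mural markers summed to 5522 to 14586 in knockout. In wild type they summed to 2336 to 2877, apart from 11429 in the female with cytokines. Of these 11 markers 0 were higher in all 4 knockout libraries, and Rgs5 was lower in all 4 (468 to 593 against 597 to 767). The part of these cells in the channel differences was not tested. In bulk islets, fewer cells of a type and less RNA per cell cannot be told apart.

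Of 63 measured genes that act with these channels (pumps, calcium release and entry channels, other cation channels, and regulators), the authors called 0 in every comparison. Untreated, 3 were higher and 2 lower in knockout at an unadjusted p below 0.05, where 3.37% and 1.52% of all genes were. The lower ones were the calcium pump Atp2a2 and the pacemaker channel Hcn4. With cytokines 3 of the 63 were higher and 0 lower, where 3.64% and 2.24% of all genes were. Nfatc2, given above, is not among the 63. Trpm2, a calcium-permeable cation channel, had the smallest FDR untreated, 0.06. It held 477 against 299 normalized counts as the authors' means (log2 0.67, SE 0.18, in the authors' deposited table of untreated islets). Gem, a small GTPase that restrains calcium channels, had a log2 difference of 1.04 (SE 0.33, FDR 0.165), and Amigo2, a cell adhesion protein, 0.45 (SE 0.18, FDR 0.529), in the same deposited table.

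Comparisons within each genotype asked how channel genes answered 2 h of cytokines in 11 mM glucose. Of 83 channel genes, 0 passed the FDR of the authors' deposited tables in knockout (0.0429% of all genes did) and 0 in wild-type islets (0.0122%). No channel gene had an unadjusted p below 0.05 in either, against 1.02% and 0.918% of all genes. The median log2 fold change was -0.01 in knockout, with 39 of 83 positive, and 0.02 in wild type, with 45 of 83 positive. With the mouse as a block, limma also called 0 channel genes in both, where 20 (0.123%) and 25 (0.153%) of all genes were called. An unadjusted p below 0.05 was then reached by 5 and 11 of 83 channel genes, and by 1357 and 1978 of 16318 genes.

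**Figure D4:**
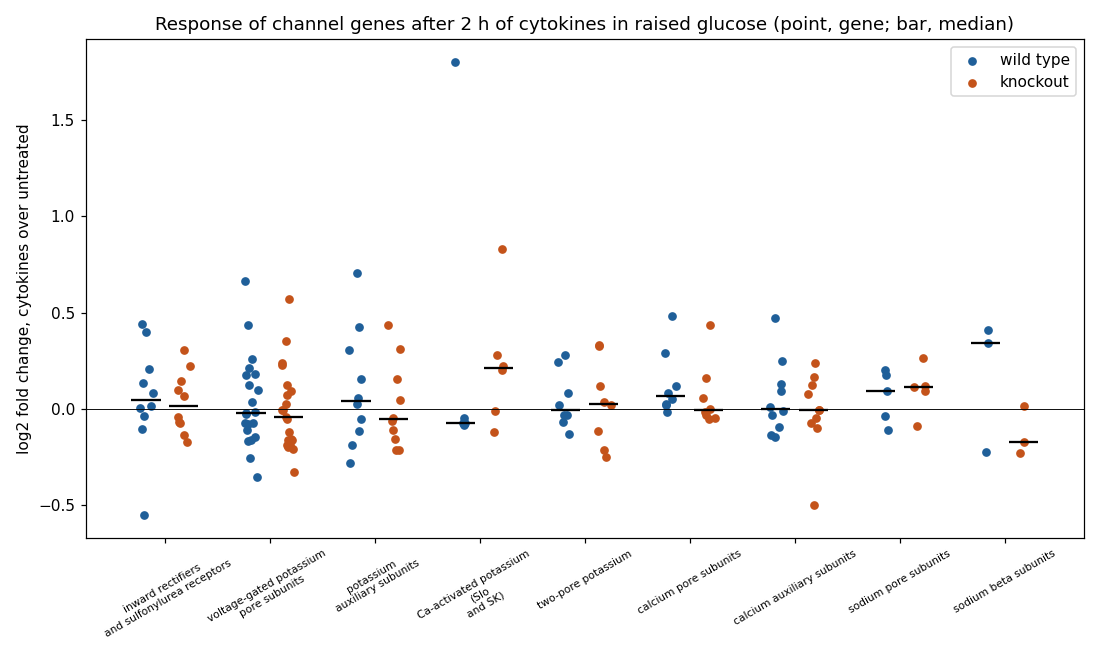
Authors' log2 fold change of cytokines over untreated for each protein-coding channel gene, by family, in wild-type (blue) and knockout (orange) islets; bars are family medians. Most points lie within 0.5 of 0, and the highest is Kcnn4 in wild type at 1.80.

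Kcnn4, a calcium-activated potassium channel also found in blood and epithelial cells, had the largest fold change. It held 12 and 8.02 normalized counts in untreated and 52.1 and 18.3 in cytokine-treated wild-type libraries, a log2 fold change of 1.80 (SE 0.98, p = 0.0657 by the authors' Wald test over all libraries). In knockout it held 39.2 and 9.61, then 41.9 and 45.9 (log2 0.83, SE 0.93, in the authors' deposited table). The knockout female thus differed little between treatments, and the errors span the range from no change to several-fold. The KATP genes stayed close: Kcnj11 had a log2 fold change of 0.14 (SE 0.12) in knockout and 0.08 (SE 0.12) in wild type, and Abcc8 -0.04 (SE 0.20) in both, in the authors' deposited tables. Abcc9, the receptor subunit of vascular KATP channels, had 0.31 (SE 0.26) and 0.44 (SE 0.27), and Kcnh6 -0.33 (SE 0.28) and -0.15 (SE 0.28), knockout before wild type, in the same deposited tables. The response differed between genotypes for 0 channel genes and 0 of all genes after adjustment, where 36 of all genes (0.22%) and 0 channel genes had an unadjusted p below 0.05. The smallest adjusted p of a channel gene was 0.999989. With the mouse as a block, limma also called 0 channel genes and 0 of all genes for this response difference. An unadjusted p below 0.05 was then reached by 1 channel gene and 669 of 16318 genes, and the smallest adjusted p of a channel gene was 0.998.

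Libraries of the female and male mice stood apart for many channel genes, in both genotypes and treatments. All 4 male libraries lay below all 4 female libraries for 18 channel genes (21.7%, against 8.22% of all genes), and above for 4 (4.82%, against 8.25%). These are descriptions with no test, since each genotype has 1 mouse of each sex. The 18 include the G-protein-gated inward rectifiers Kcnj3 and Kcnj6, the T-type calcium pores Cacna1h and Cacna1i, the tandem-pore Kcnk3 and the sulfonylurea receptor Abcc8. Cacna1h held 163 to 180 normalized counts in male and 307 to 409 in female libraries. Kcnj3 held 38.4 to 74.1 against 112 to 145, and Kcnk3 130 to 166 against 270 to 314. The 4 that were higher in males were Cacnb2, Cacng2, Kcnf1 and Scn9a. Alpha-cell markers other than Gcg, whose reads were not recovered, moved the same way: all 6 were lower in every male library, with sums of 5377 to 7486 against 13524 to 14497. So did all 4 delta-cell markers (18349 to 20949 against 26771 to 41465). Of 7 beta-cell markers, 3 were lower in every male library (Mafa, Ucn3 and Slc30a8) and 0 were higher in every one. The beta-cell sums overlapped, at 81828 to 84265 in males and 76046 to 90792 in females. Acinar sums were lower in the male of every group (7142 to 31554 against 28350 to 116109). Duct sums were higher in every male library (29365 to 33791 against 22008 to 27196), but the single markers were split. Of 8 duct markers only Spp1 was higher in every male library (15638 to 19476 against 6777 to 10374). Krt19, Sox9 and Muc1 were lower in every male library. The part of these cells in the channel differences was not tested.

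**Figure D5:**
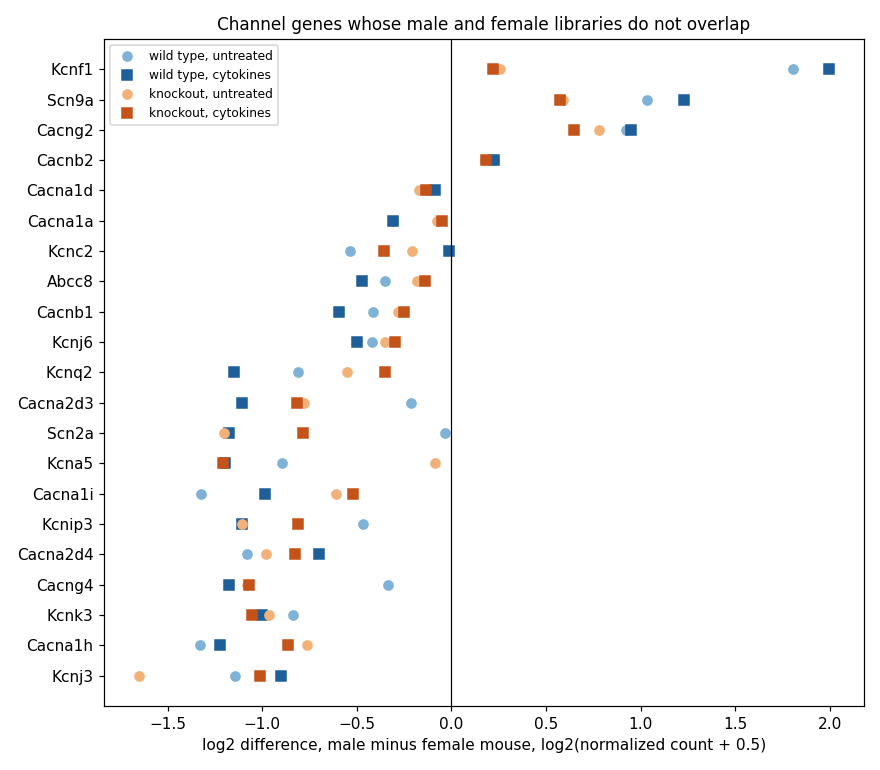
Difference of log2(normalized count + 0.5) between the male and the female mouse in each of the 4 groups, for 21 channel genes whose male and female libraries do not overlap. In 17 genes the points lie left of 0 and in 4 right of 0; the wild-type points of Kcnf1 lie far from its knockout points.

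The 2 noncoding members had no unadjusted p below 0.05 in any comparison. Kcnq1ot1, an imprinted antisense transcript across Kcnq1, held 15930 to 18892 normalized counts over all libraries. Kcnab3os, antisense to the auxiliary subunit gene Kcnab3, held 19.2 to 35.5. Both lie across a sense channel gene, so without strand their reads and those of the partner cannot be told apart.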

How the data were processed

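RNA-seq of islets from 4 mice was used as 4 tables of the authors' own comparisons over 16333 genes. Per the submitters' processing notes, the tools were HISAT2, HTSeq and DESeq2, on GRCm38, with no version and no role given. The deposited signal columns hold group means of reads divided by size factors, per the file headers and their values. The deposited log2 fold change and its score (Wald) are the authors', and their ratio was used as the standard error. The deposited p-value is the two-sided normal probability of that score, and the deposited FDR its Benjamini-Hochberg adjustment over the table. The lowest overall mean was 23.2, so low genes had been removed before deposit.

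A group mean is a sum of 2 whole read numbers, each times a fixed step; solving for both gave reads for 16318 genes (99.9%), 217 of them only with the overall mean, and the overall mean was met to a relative gap of 8.4e-15. In simulated tables every settled gene was right (100.0%). The 15 unsettled genes, Ins1, Ins2 and Gcg among them, stayed out of library values. Called means FDR below 0.05 in the authors' tables. limma 3.58.1 (R 4.3.3, trend) was fitted to log2(normalized count + 0.5) over all genes, adjusted over all of them, and checked on simulated data. The tables hold no library columns of counts, and no count model was run on the recovered reads. The response difference divides the difference of the 2 deposited cytokine fold changes by the standard error the 2 give when combined as independent.

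Female-minus-male differences correlated across 13757 autosomal genes at 0.742 and 0.733 between the treatments of a genotype, whose libraries the labels' mouse numbers tie to the same mice, and at 0.435 to 0.482 between genotypes, where the match by sex comes from the data. Lengths and positions come from GENCODE M21, upstream sequences from RefSeq (GRCm38.p6). Named genes were those called, the 6 smallest p-values per comparison, the 3 highest per family and a fixed beta-cell list; Kcnj5, Kcnf1, Kcna2, Kcnb2, Kcng3, Kcnj3, Kcnq3, Cacna1b, Cacna1g, Cacna1i, Cacnb4, Cacng2, Kcne4, Trpm2, Gem, Amigo2, Atp2a2 and Hcn4 were named after their values were seen. The members and lists were chosen with earlier results of these data known. Some channel genes are counted but not reported by name here.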

Additional observations from a re-analysis of the deposited data

How the results depend on the processing

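For the authors' comparisons, the count of 0 called channel genes held when p was re-adjusted over genes with a mean of at least 50 or 200, in limma without a block, with total-read scaling, with a pseudocount of 5, and in leave-one-out fits, where the lowest and highest count were both 0; in these a group with 1 library is assumed to vary like the other. The replicate block moved the genotype counts, to 13 untreated and 15 with cytokines, with the pairing by sex taken from the data; it changed no other call count of channel genes. For the genotype difference over both treatments (0 calls), the fit with no replicate block called 1 (Kcnk5, adjusted p 0.0383 by limma, where 1.61% of all genes were called), leaving out each mouse gave 0 to 4 (0.0245% to 3.27% of all genes), and the mean of each mouse gave 0. Of 24 fold changes of single genes and comparisons, 133 alternative values kept their direction and their side of the threshold, 10 passed it, all with the replicate block, and 1 reversed: Scn3a in the knockout cytokine response was -0.0512 without the cytokine-treated knockout female. The causes were not tested. Genes with few reads, 33 of them with a mean under 100, and 2 mice per genotype limit what could be detected.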

Other observations

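Kcnf1, an electrically silent potassium subunit that modifies other potassium pores, was set apart by 1 mouse. The wild-type male held 1136 normalized counts untreated and 1058 with cytokines, while the wild-type female held 324 and 265, the knockout female 394 and 399.6, and the knockout male 471 and 465. The genotype difference therefore had opposite signs in the sexes, at 0.28 and 0.59 in females and -1.27 and -1.18 in males on the log2 scale, untreated before cytokines. With 1 mouse in each cell of that comparison it has no test. Kcne4, an auxiliary subunit that restrains potassium channels, held 89.1 in the wild-type female with cytokines and 16.7 to 50.9 in the other 7 libraries.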
